A study of Rattus norvegicus with 12 samples.

Results

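Endothelial identity genes are genes by which the lining cells of blood vessels are recognised. The 9 genes described here are Pecam1, Cdh5, Eng, Vwf, Esam, Cldn5, Emcn, Nos3 and Plvap, listed by name with earlier results of these data known. Of these 9 genes, 8 were measured, each on 1 probe set, among 14506 genes with a symbol. Vwf, the gene of von Willebrand factor, a clotting protein stored by endothelial cells, was named on none of the probe sets and was not analysed here.

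The arrays compared corpora lutea (CL) of pregnant Wistar rats in 4 groups of 3 animals, with RNA of 1 animal on each of 12 Affymetrix Rat Gene arrays. AI+E2 rats received anastrozole, an inhibitor of aromatase (AI), at 1 mg per kg orally each day together with estradiol-17β (E2) at 10 µg per day under the skin for 4 days, and CL were collected on day 16 of pregnancy. AI rats received the inhibitor alone and VEH rats the vehicle over the same 4 days, also with collection on day 16, and day 12 rats were untreated. The comparisons of the day 16 groups ask what E2 deprivation and its replacement did to luteal transcripts. VEH against day 12 compares these days of pregnancy, but VEH rats were dosed with vehicle and day 12 rats were not. Day of pregnancy and vehicle dosing therefore cannot be told apart in it.

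The CL is among the most densely vascularised tissues of the body, and endothelial cells make up a large share of its cells. They line the capillaries through which luteal cells take up cholesterol from lipoproteins and release progesterone. Their identity is held by junction proteins that join neighbouring cells, by surface glycoproteins and co-receptors, by the enzyme that makes nitric oxide, and by transcription factors of the Ets, Sox and Gata families.

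Values are deposited log2 values made by the authors with RMA, a method that subtracts background, equalises the arrays' distributions and summarises the probes of a probe set. Log2 values of different probe sets cannot be set against each other, so levels were compared between arrays and not between genes. Genes were set beside each other by fold changes, or by values centred on each gene's own mean. A log2 fold change is the mean of one group minus that of the other, given with the standard error (SE) of a limma fit over all 12 arrays. A gene is said to have risen or fallen where its p was under 0.05 after Benjamini-Hochberg adjustment across the 14506 genes. The array medians lay between 6.51 and 6.56. The luteal label was checked with Star, the cholesterol carrier of steroid-making cells, which lay between 12.58 and 12.89 on the 12 arrays, and with Lhcgr, the receptor of luteinising hormone, which lay between 12.25 and 12.62. Fshr, the receptor of follicle-stimulating hormone in granulosa cells of follicles, was less even. It ran from 5.64 on VEH replicate 3 to 7.07 on AI replicate 3, and the other AI arrays gave 6.18 and 6.22. Whether follicle tissue was carried along was not tested.

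Transcripts of 5 of the 8 measured endothelial identity genes were lower in CL of AI treated rats than in VEH. Eng, Pecam1, Emcn, Esam and Nos3 fell, by 29.3%, 26.5%, 26.0%, 22.9% and 16.6%. In CL of AI+E2 rats 4 of these, Esam, Eng, Emcn and Nos3, were also lower than in VEH, and no gene of the set differed by the test between AI+E2 and AI. Without the inhibitor, Eng, Emcn, Esam, Cdh5 and Pecam1 were higher on day 16 in VEH than on day 12. Cldn5 and Plvap passed the test in none of these comparisons. In whole CL, fewer cells of a type and less RNA per cell cannot be told apart.

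In AI against VEH the 5 genes that fell compare with 11.0% of all genes tested that fell, and 0 of the 8 rose, against 5.91% of all genes. The members' median log2 fold change was -0.32, and that of all genes was 0.013. In AI+E2 against VEH 4 of the 8 fell, where 6.90% of all genes fell, and the members' median was -0.27 beside -0.0064 for all genes. In VEH against day 12 the 5 members that rose compare with 6.91% of all genes that rose, and the members' median was 0.32 beside -0.018. None of the 8 fell there, against 3.23% of all genes. These 3 comparisons all use the VEH arrays, so they are not independent of each other. In AI+E2 against AI 0 of the 8 genes rose and 0 fell, where 8.65% and 4.13% of all genes did, and the members' median was 0.0024 beside -0.022. The methods' t-test, which estimates the spread from the 2 compared groups of each gene alone, gave 6 members lower in AI+E2 against VEH, 5 lower in AI against VEH and 5 higher in VEH against day 12 at an unadjusted p under 0.05. After Benjamini-Hochberg adjustment this test gave 3, 1 and 0.

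**Figure D1:**
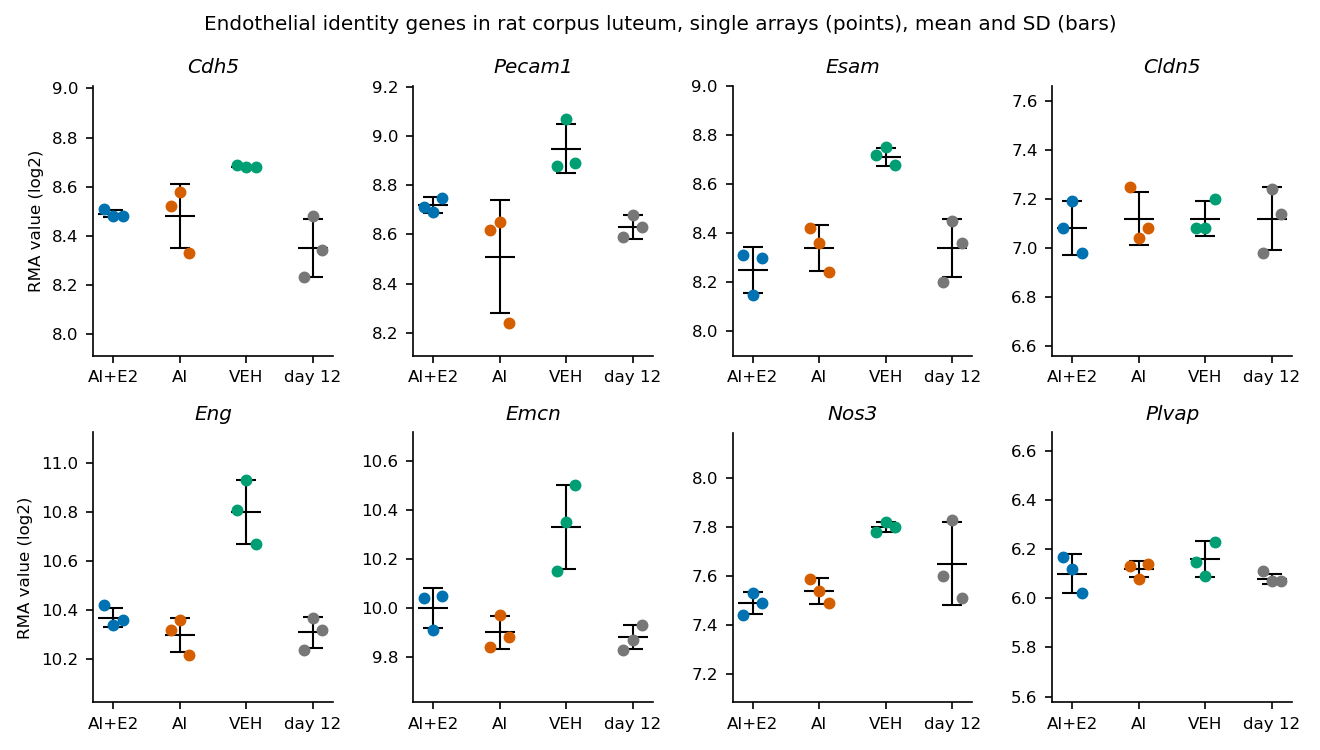
RMA log2 value (y axis) of each of the 8 measured endothelial identity genes in AI+E2, AI, VEH and day 12 CL (x axis), with points for single arrays and bars for the mean and SD of 3 animals. The axes of all panels span the same number of log2 units but start at different values. VEH points lie above all AI and AI+E2 points in 6 panels, and groups overlap for Cldn5 and Plvap.

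Among the junction genes, Cdh5 encodes VE-cadherin, the adhesion protein of the endothelial adherens junction. Its log2 values were 8.51, 8.48 and 8.48 in AI+E2 CL and 8.52, 8.58 and 8.33 in AI CL, against 8.69, 8.68 and 8.68 in VEH CL, with 8.23, 8.48 and 8.34 on day 12. The 3 VEH arrays lay close together and above each of the other 9. Even so, the differences of -0.19 in AI+E2 and -0.20 in AI against VEH did not pass the test (SE 0.0727 each, adjusted p = 0.114 and 0.071). Cdh5 rose by 0.33 in VEH against day 12 (SE 0.0727, adjusted p = 0.00892), a call that was lost without day 12 replicate 1, at 0.27. Without AI replicate 2 the difference between AI and VEH was -0.26 and passed the test.

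Pecam1, the gene of CD31, an immunoglobulin-family protein at the borders between endothelial cells that platelets and leukocytes also carry, had the widest spread in AI CL. It gave 8.71, 8.69 and 8.75 in AI+E2 CL and 8.62, 8.65 and 8.24 in AI CL, against 8.88, 9.07 and 8.89 in VEH CL, and 8.59, 8.68 and 8.63 on day 12. The AI array at 8.24 was the lowest of the 12, and the next lay at 8.59. All AI+E2 arrays lay above all AI arrays, as they did for 16.4% of all genes. Pecam1 fell by 0.44 in AI against VEH (SE 0.0911, adjusted p = 0.00279). In AI+E2 against VEH it differed by -0.23 (95% interval -0.43 to -0.036, adjusted p = 0.126), and in AI+E2 against AI by 0.21 (95% interval 0.018 to 0.41, adjusted p = 0.16). It was higher by 0.32 in VEH than on day 12 (adjusted p = 0.0391), the call of the set that depended most on single animals. That call was lost on leaving out any one of the VEH replicates 1, 2 and 3, at 0.35, 0.26 and 0.34, or of the day 12 replicates 1, 2 and 3, at 0.29, 0.34 and 0.31.

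Esam encodes an adhesion molecule of endothelial tight junctions. Its values were 8.31, 8.15 and 8.30 in AI+E2 CL and 8.42, 8.36 and 8.24 in AI CL, against 8.72, 8.75 and 8.68 in VEH CL, with 8.20, 8.45 and 8.36 on day 12. Every VEH array was above every array of the other groups, which overlapped with each other. Esam fell by 0.46 in AI+E2 against VEH (SE 0.0737, adjusted p = 0.000521) and by 0.37 in AI against VEH (SE 0.0737, adjusted p = 0.00202). It rose by 0.38 in VEH against day 12 (SE 0.0737, adjusted p = 0.00364).

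Cldn5, the claudin of endothelial tight junctions best known from the blood-brain barrier, passed the test in no comparison. Its values were 7.08, 7.19 and 6.98 in AI+E2 CL, 7.25, 7.04 and 7.08 in AI CL, 7.08, 7.08 and 7.20 in VEH CL, and 6.98, 7.24 and 7.14 on day 12. All 4 groups overlapped. The difference was -0.038 in AI+E2 against VEH (95% interval -0.21 to 0.13) and -0.00025 in AI against VEH (95% interval -0.17 to 0.17), so neither interval reaches the falls estimated in the same comparison for Eng, Emcn, Esam and Nos3.

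Of the surface glycoproteins, Eng encodes endoglin, a co-receptor for ligands of the TGF-β and BMP family. It gave 10.42, 10.34 and 10.36 in AI+E2 CL and 10.32, 10.36 and 10.22 in AI CL, against 10.81, 10.93 and 10.67 in VEH CL, and 10.24, 10.37 and 10.32 on day 12. The lowest VEH array was above the highest array of each other group, and AI+E2, AI and day 12 overlapped. Eng fell by 0.50 in AI against VEH, the largest fall among the 8 genes (SE 0.0688, adjusted p = 8.91e-05), and by 0.43 in AI+E2 against VEH (adjusted p = 0.000563). Its rise of 0.49 in VEH against day 12 was also the largest of the set (adjusted p = 0.000257). AI and day 12 CL differed by -0.0086 (95% interval -0.16 to 0.14).

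Emcn encodes endomucin, a sialomucin of venous and capillary endothelium. Its values were 10.04, 9.91 and 10.05 in AI+E2 CL and 9.84, 9.97 and 9.88 in AI CL, against 10.15, 10.35 and 10.50 in VEH CL, with 9.83, 9.87 and 9.93 on day 12. The VEH arrays were the highest and also the most spread, with an SD of 0.17. Emcn fell by 0.43 in AI against VEH (SE 0.0795, adjusted p = 0.00114) and by 0.33 in AI+E2 against VEH (SE 0.0795, adjusted p = 0.0111), and it rose by 0.46 in VEH against day 12 (adjusted p = 0.0016). The AI+E2 call was lost without AI+E2 replicate 2, at -0.28, and without VEH replicate 3, at -0.25.

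Nos3 encodes the endothelial nitric oxide synthase, which makes the vasodilator nitric oxide. Its values were 7.44, 7.53 and 7.49 in AI+E2 CL and 7.59, 7.54 and 7.49 in AI CL, against 7.78, 7.82 and 7.80 in VEH CL, and 7.60, 7.83 and 7.51 on day 12. The VEH arrays were above all AI and AI+E2 arrays but not above day 12, where 1 array reached 7.83. Nos3 fell by 0.31 in AI+E2 against VEH (SE 0.0725, adjusted p = 0.00863) and by 0.26 in AI against VEH (SE 0.0725, adjusted p = 0.021). The call in AI was lost without AI replicate 3, at -0.24, without VEH replicate 2, at -0.25, and when the arrays were quantile normalized again, at -0.23. Nos3 differed by 0.15 in VEH against day 12 (adjusted p = 0.227), and by 0.24, past the test, without day 12 replicate 2.

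Plvap encodes the protein of the diaphragms that span endothelial fenestrae and caveolae. It gave 6.17, 6.12 and 6.02 in AI+E2 CL, 6.13, 6.08 and 6.14 in AI CL, 6.15, 6.09 and 6.23 in VEH CL, and 6.11, 6.07 and 6.07 on day 12. The groups overlapped, and the means of the 4 groups spanned 0.08. Plvap was the 1 member among the 50% of genes with the lowest mean signal, where a difference is read less well. Its difference was -0.053 in AI+E2 against VEH (95% interval -0.18 to 0.073) and -0.043 in AI against VEH (95% interval -0.17 to 0.084).

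**Figure D2:**
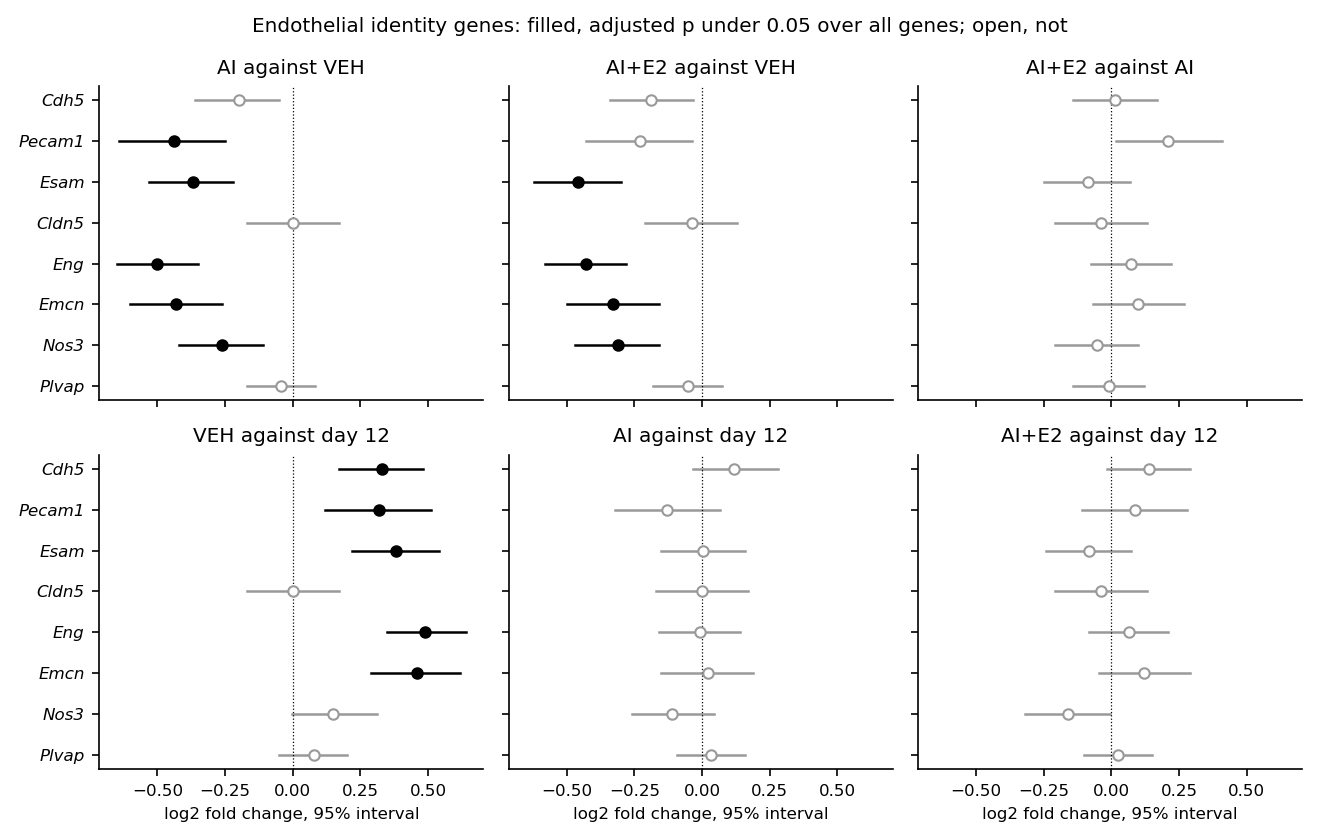
Log2 fold change (x axis, points) with its 95% interval (lines) for the 8 measured genes (rows) in 6 comparisons (panels), with filled points where the adjusted p over all 14506 genes was under 0.05. Filled points lie at -0.26 or lower in AI against VEH, at -0.31 or lower in AI+E2 against VEH, and at 0.32 or higher in VEH against day 12.

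The order of the group means put VEH highest for 7 of the 8 genes, all but Cldn5. Below VEH, the order of AI+E2, AI and day 12 changed between genes, and neighbours in it did not differ by the test. VEH and the group next to it differed by the test for Eng and Emcn, where that was AI+E2, and for Esam, where it was AI. They did not for Pecam1 and Cdh5, next to AI+E2, for Nos3, next to day 12, or for Plvap, next to AI. Of the 8 genes, 0 fell and 0 rose in AI+E2 against day 12, where 4.58% and 7.52% of all genes did, and the same was found in AI against day 12, where 4.27% and 3.30% did. At an unadjusted p under 0.05 limma gave 1 member in AI+E2 against day 12, Nos3, lower by 0.16 (95% interval -0.32 to -0.0067), 0 in AI against day 12, and 1 in AI+E2 against AI, which was Pecam1. The methods' t-test, unadjusted, gave 0 in each of these 3 comparisons.

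The single arrays show how far the genes moved together. Each gene was centred on its mean over the 12 arrays, and the median over the 8 genes was taken on each array. It was -0.012, -0.052 and -0.091 in AI+E2 CL and -0.0096, -0.053 and -0.16 in AI CL, against 0.17, 0.26 and 0.19 in VEH CL, with -0.16, -0.019 and -0.086 on day 12. The VEH arrays thus stood apart from all others, and single animals differed within groups. AI replicate 3 was below its group mean in 7 of the 8 genes and the lowest AI array in 5, and day 12 replicate 1 was below its group mean in 7 and the lowest day 12 array in 6. Without AI replicate 3, 4 genes fell in AI against VEH in place of 5, and without day 12 replicate 1, 3 genes rose in VEH against day 12 in place of 5.

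The 6 genes whose VEH arrays all lay above the AI arrays were Pecam1, Cdh5, Eng, Esam, Emcn and Nos3, and 17.2% of all genes had AI arrays all below VEH. The same 6 genes had all AI+E2 arrays below all VEH arrays, as did 15.7% of all genes. In VEH against day 12, 5 members did not overlap with VEH above, where 12.5% of all genes did not. In AI+E2 against AI, 1 member, Pecam1, did not overlap with AI+E2 above, where 16.4% of all genes did not. Pecam1 and Cdh5 were the 2 members with all AI+E2 arrays above day 12, as had 14% of all genes.

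**Figure D3:**
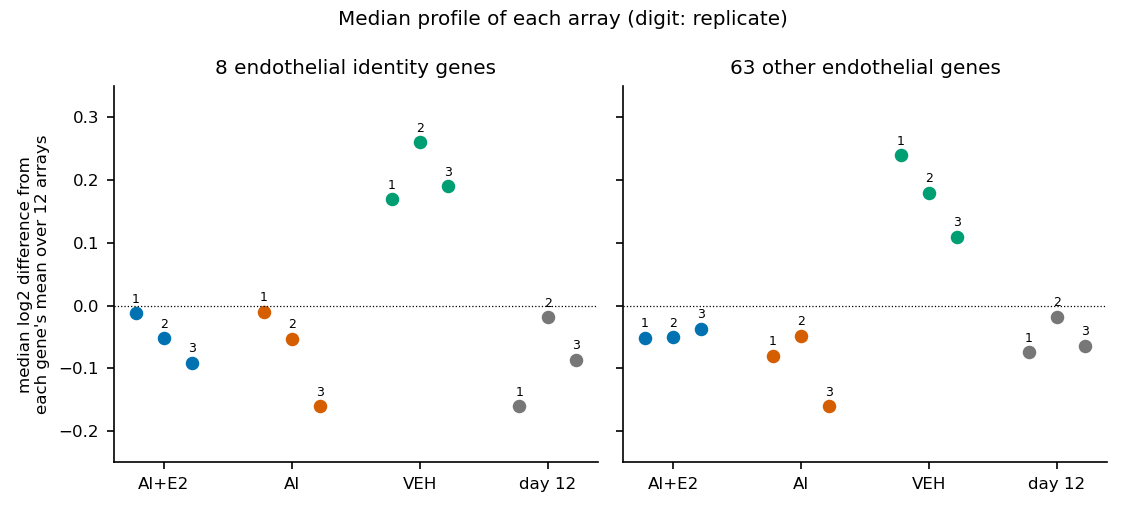
Median over the 8 measured endothelial identity genes (left) and over 63 other endothelial genes (right) of the log2 difference from each gene's mean over 12 arrays (y axis), 1 point for each array, numbered by replicate, in AI+E2, AI, VEH and day 12 CL (x axis). VEH arrays lie between 0.17 and 0.26 on the left, and all arrays of the other groups lie below 0.

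The sequence before the transcription start is shown for the 5 of the 9 genes that were matched in RefSeq promoters of the rat assembly GRCr8. Pecam1, Cdh5, Vwf and Esam were not matched. The 150 bases up to the outermost annotated start were read. Ets factors such as Erg and Ets1 bind sites with the core GGAA, and AGGAAG, which contains that core, was searched on both strands. It is in capitals below and reads CTTCCT where it lies on the other strand. Eng (chr3:36332040-36332189, + strand), Emcn (chr2:228564295-228564444, + strand) and Nos3 (chr4:11706605-11706754, - strand) are genes that fell in both AI and AI+E2 against VEH.
Eng: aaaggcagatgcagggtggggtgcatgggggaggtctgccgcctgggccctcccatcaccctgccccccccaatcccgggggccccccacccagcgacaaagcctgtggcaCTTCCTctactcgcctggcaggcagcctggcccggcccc
Emcn: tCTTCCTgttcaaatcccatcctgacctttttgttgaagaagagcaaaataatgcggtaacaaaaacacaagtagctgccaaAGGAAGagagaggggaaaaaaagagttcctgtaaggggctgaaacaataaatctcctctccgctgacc
Nos3: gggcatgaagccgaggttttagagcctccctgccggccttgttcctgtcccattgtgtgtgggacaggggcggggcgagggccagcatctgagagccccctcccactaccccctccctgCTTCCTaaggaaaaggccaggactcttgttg
Cldn5 (chr11:95718599-95718748, - strand) and Plvap (chr16:18231280-18231429, - strand) are genes that passed the test in neither comparison.
Cldn5: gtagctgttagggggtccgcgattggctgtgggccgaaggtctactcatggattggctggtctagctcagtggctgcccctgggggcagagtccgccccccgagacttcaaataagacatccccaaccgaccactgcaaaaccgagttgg
Plvap: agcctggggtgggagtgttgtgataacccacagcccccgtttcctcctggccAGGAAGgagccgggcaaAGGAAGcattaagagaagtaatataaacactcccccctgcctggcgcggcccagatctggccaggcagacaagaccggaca

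AGGAAG was found in 4 of these 5 sequences, in 6 of 26 matched sequences of other endothelial genes (23.1%) and in 18.9% of 21898 rat promoters of the same length. Its first base lay 39 bases before the start of Eng, 31 before that of Nos3, 149 and 68 before that of Emcn, and 98 and 81 before that of Plvap. Plvap, which passed no test, and Emcn, which fell, thus each hold it at 2 places. The shorter GGAA was in 4 of the 5 and in 81.5% of all promoters. AGATAA, a site of Gata factors, was in 0 of the 5 and in 6.36% of all promoters. A match of letters is no evidence that a factor was bound in these CL.

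Other genes of the endothelium were read from a list of 70, of which 63 were measured. In AI against VEH 36 of them fell and 2 rose, where 11.0% and 5.91% of all genes did. The median log2 fold change was -0.30, beside 0.013 for all genes. In AI+E2 against VEH 27 fell and 2 rose, where 6.90% and 6.11% of all genes did, with a median of -0.21 beside -0.0064. In VEH against day 12 28 rose and 1 fell, where 6.91% and 3.23% of all genes did, with a median of 0.23 beside -0.018. In AI+E2 against AI 7 rose and 2 fell, shares near the 8.65% and 4.13% of all genes, and the median was 0.016. The methods' t-test after Benjamini-Hochberg adjustment gave 10 lower in AI against VEH in place of 36, 11 lower in AI+E2 against VEH in place of 27, 1 higher in VEH against day 12 in place of 28, and 0 higher and 1 lower in AI+E2 against AI. Without VEH replicate 1 the medians against VEH were -0.15 in AI+E2 and -0.25 in AI, and without VEH replicate 3 that of VEH against day 12 was 0.28.

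Of 20 receptors and signalling genes, 14 fell and 1 rose in AI against VEH (11.0% and 5.91% of all genes), with a median of -0.43. Kdr and Flt1, the receptors of vascular endothelial growth factor, were among those that fell. Flt1 gave 8.65, 8.63 and 8.76 in AI+E2 CL and 8.90, 9.02 and 8.71 in AI CL, against 9.52, 9.39 and 9.34 in VEH CL, with 8.71, 9.03 and 8.86 on day 12. It fell by 0.74 in AI+E2 against VEH (SE 0.0902, adjusted p = 4.78e-05), and Kdr fell by 0.69 (SE 0.102, adjusted p = 0.000271). Calcrl, the receptor of adrenomedullin, had values between 8.87 and 9.09 in AI+E2 CL and between 8.84 and 9.01 in AI CL, against 9.49 to 9.71 in VEH CL. It fell by 0.62 in AI+E2 against VEH (adjusted p = 0.000168) and by 0.66 in AI against VEH (adjusted p = 5.95e-05).

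Among these 20 genes, AI+E2 CL had 4 higher and 1 lower than AI CL, where 8.65% and 4.13% of all genes were. The share of the 20 genes was not tested against that of all genes. Adgrl4, an adhesion G protein-coupled receptor of endothelial cells, gave 8.26, 8.25 and 8.37 in AI+E2 CL and 7.63, 7.89 and 7.60 in AI CL, against 8.36, 8.53 and 8.64 in VEH CL, with 7.66, 7.61 and 7.56 on day 12. It fell by 0.80 in AI against VEH (adjusted p = 6.08e-06) and rose by 0.59 in AI+E2 against AI (SE 0.0839, adjusted p = 0.00019). Ramp2, the partner protein of Calcrl, rose by 0.46 in AI+E2 against AI (SE 0.112, adjusted p = 0.0124), and Aplnr, the receptor of apelin, by 0.31 (SE 0.0801, adjusted p = 0.0174). Both calls were lost without AI+E2 replicate 3, at 0.42 for Ramp2 and 0.26 for Aplnr, and without AI replicate 3, at 0.39 and 0.24. The 7 rises of the list in AI+E2 against AI were 4 without AI+E2 replicate 1, AI replicate 1 or AI replicate 3, and 3 without AI+E2 replicate 3. S1pr1, a receptor of sphingosine 1-phosphate, ran the other way. It lay between 8.95 and 9.07 in AI+E2 CL and between 9.37 and 9.58 in AI CL, against 8.94 to 9.15 in VEH CL, a rise of 0.47 in AI against VEH (adjusted p = 0.00028) and a fall of 0.48 in AI+E2 against AI (adjusted p = 0.000306).

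Of 16 transcription factors, 3 fell in AI+E2 against VEH and 7 in AI against VEH, and 4 rose in VEH against day 12. The shares of all genes were 6.90%, 11.0% and 6.91%, and the medians of the 16 factors were -0.091, -0.17 and 0.14. The Ets factors Elk3 and Ets1 and the hypoxia-inducible factor Epas1 were the 3 that fell in AI+E2, and all 3 are also among the 7 in AI. Erg, another Ets factor, is among the 7. It was 1 of 2 factors that rose in AI+E2 against AI, with Sox17, where 8.65% of all genes rose. The rest of the 7 were Sox18, Gata2 and Hey2, which are not Ets factors. The Ets factor Fli1 passed the test in none of these comparisons (-0.14 in AI against VEH, adjusted p = 0.201). These factors were named after their values were seen.

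Of 27 genes for adhesion, junctions and the cell surface, 13 fell and 2 rose in AI+E2 CL against VEH. In AI CL 15 fell and 1 rose. Of all genes, 6.90% fell and 6.11% rose in AI+E2 against VEH, and 11.0% fell and 5.91% rose in AI against VEH. Cd93, a lectin-like receptor of endothelial cells, gave 8.27, 8.24 and 8.28 in AI+E2 CL and 8.29, 8.38 and 8.20 in AI CL, against 9.17, 8.99 and 8.96 in VEH CL, with 8.58, 8.66 and 8.54 on day 12. It fell by 0.77 in AI+E2 against VEH (SE 0.0676, adjusted p = 1.69e-06) and by 0.75 in AI against VEH (adjusted p = 1.32e-06). Cd34, a sialomucin, fell by 0.72 in AI+E2 against VEH (adjusted p = 7.69e-06), and Cav1, the main protein of caveolae, fell by 0.68 in AI against VEH (adjusted p = 6.71e-05). Mcam, an adhesion molecule also of pericytes, and Myct1, a gene of endothelial cells, rose by 0.66 and 0.63 in VEH against day 12 (adjusted p = 0.000528 and 0.000102). Podxl, a sialomucin of the luminal surface, gave 9.70, 9.65 and 9.70 in AI+E2 CL, against 9.29, 9.32 and 8.85 in AI CL, a rise of 0.53 (SE 0.111, adjusted p = 0.00448).

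Jam2, an adhesion molecule of endothelial junctions that other cells also make, was higher in AI+E2 and in AI than in VEH, where the junction gene Esam fell. Its values were 11.38, 11.33 and 11.39 in AI+E2 CL and 11.54, 11.65 and 11.53 in AI CL, against 9.90, 10.08 and 10.02 in VEH CL, with 10.91, 10.85 and 10.93 on day 12. No 2 groups overlapped. Jam2 rose by 1.58 in AI against VEH (SE 0.0614, adjusted p = 1.29e-10) and by 1.37 in AI+E2 against VEH (adjusted p = 3.39e-09), and it was lower by 0.90 in VEH than on day 12 (adjusted p = 1.64e-07). It was lower by 0.21 in AI+E2 than in AI (adjusted p = 0.0359), a call lost without AI+E2 replicate 1, 2 or 3, at -0.22, -0.19 and -0.22, and without AI replicate 1 or 2, at -0.23 and -0.17. Vcam1, an adhesion molecule for leukocytes, rose by 0.72 in AI+E2 against VEH (SE 0.196, adjusted p = 0.0238). That call was lost without AI+E2 replicate 1, 2 or 3, at 0.70, 0.75 and 0.71, and without VEH replicate 2 or 3, at 0.64 and 0.59.

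**Figure D4:**
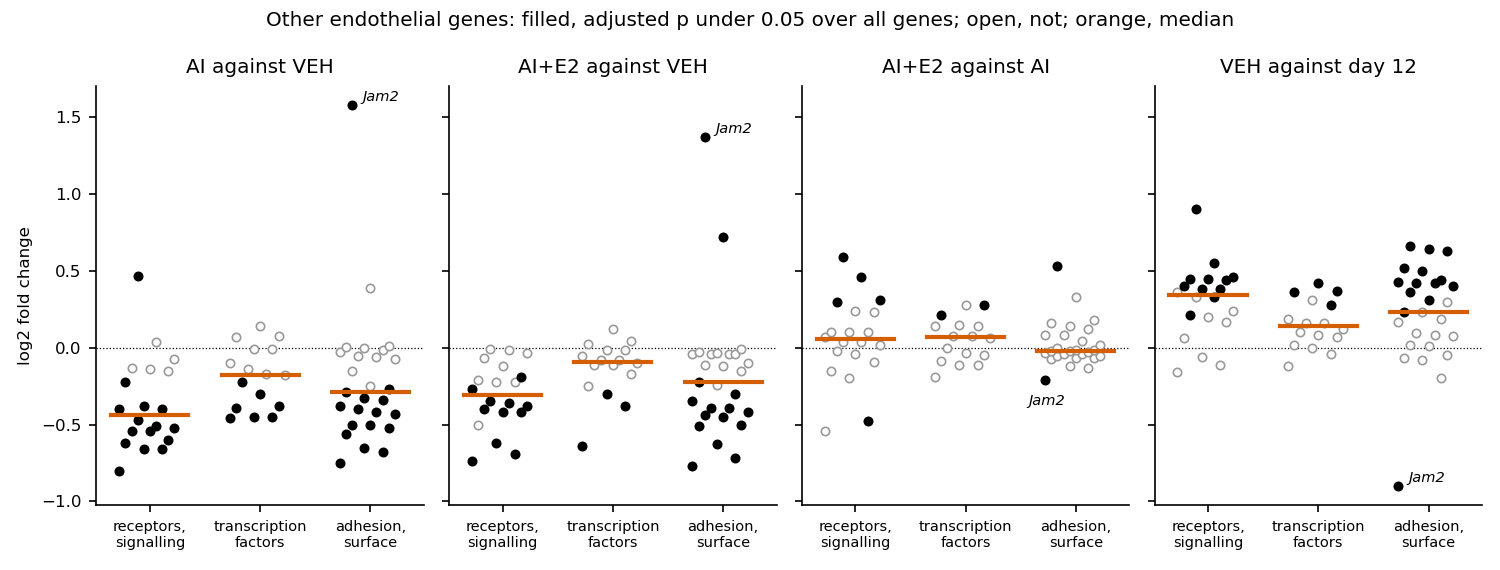
Log2 fold change (y axis) of 63 other endothelial genes in 3 groups by role (x axis) in 4 comparisons (panels), with 1 point for each gene, filled where the adjusted p over all genes was under 0.05, and a line at the median. Most filled points lie below 0 in AI and AI+E2 against VEH and above 0 in VEH against day 12, and Jam2 lies on the other side, at 1.58, 1.37 and -0.90.

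Markers of other cells were read beside these genes. Of all genes, 6.90% fell and 6.11% rose in AI+E2 against VEH, and 11.0% fell and 5.91% rose in AI against VEH. In VEH against day 12, 6.91% of all genes rose. Of 13 genes of smooth muscle and pericytes, the contractile cells that wrap vessels, 4 fell in AI+E2 against VEH and 5 in AI against VEH, 8 rose in VEH against day 12, and the medians were -0.24, -0.30 and 0.36. Their mean log2 value over the 13 genes was 8.56 on each AI+E2 array and between 8.46 and 8.63 on AI arrays, against 8.76 to 9.03 on VEH arrays and 8.41 to 8.46 on day 12. Abcc9, a potassium channel subunit of pericytes, fell by 1.25 in AI+E2 and by 1.51 in AI against VEH (adjusted p = 4.28e-08 and 2.34e-09). Of 15 macrophage genes, 6 rose in AI+E2 against VEH and 4 in AI against VEH, and 0 fell by limma's adjusted test (2 and 1 at an unadjusted p under 0.05, and 0 and 0 by the methods' t-test). Their mean lay between 7.90 and 7.95 in AI+E2 CL and between 7.75 and 7.90 in AI CL, against 7.65 to 7.74 in VEH CL. C1qa, a complement gene of macrophages, rose by 0.73 in AI+E2 against VEH (adjusted p = 0.000146). Of 8 luteal cell genes, AI+E2 CL had 4 higher and 1 lower than VEH, and AI CL had 5 higher and 2 lower. Fdx1, the electron donor of steroid hydroxylases, rose by 1.24 and 1.18 in these comparisons (adjusted p = 2.25e-08 and 1.66e-08). The part of the makeup of the tissue in the values of the endothelial genes was not tested.

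**Figure D5:**
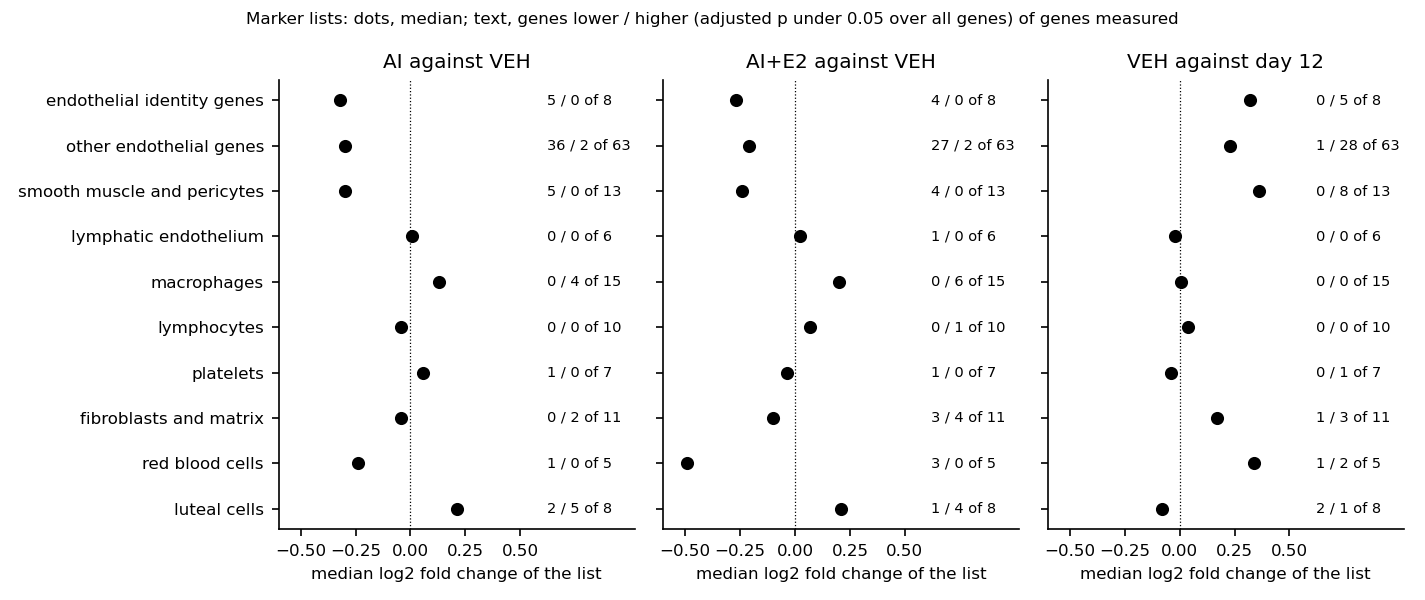
Median log2 fold change (x axis) of each marker list (rows) in 3 comparisons (panels), with text for the number of genes lower and higher (adjusted p under 0.05 over all genes) of those measured. The endothelial identity genes, the 63 other endothelial genes taken as 1 list, and the genes of smooth muscle and pericytes lie between -0.32 and -0.21 in AI and AI+E2 against VEH and between 0.23 and 0.36 in VEH against day 12.

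Genes with the most similar pattern were found by the root mean square distance, over the 12 arrays, between each gene's centred log2 values and the median of the 8 members' centred values. This measure reads the size of a change as well as its shape. Outside the endothelial lists the nearest were Sh3bp5 at 0.0465, Dock6 at 0.0575, Syne1 at 0.0602 and Pdgfrb at 0.0619, followed by Tmem184b, Purb, Mknk2, Tpst2, Alpl and Reep1, up to 0.0662. The members themselves lay between 0.0637 for Cdh5 and 0.138 for Cldn5. Sh3bp5 gave 7.94, 7.87 and 7.84 in AI+E2 CL and 7.93, 7.91 and 7.77 in AI CL, against 8.07, 8.11 and 8.01 in VEH CL, with 7.81, 7.84 and 7.82 on day 12. Pdgfrb, the receptor by which pericytes respond to platelet-derived growth factor, averaged 9.09 in AI+E2 CL and 9.07 in AI CL, against 9.40 in VEH CL, with 9.07 on day 12. Of the 63 other endothelial genes, 3 were among the 100 nearest of 14498 genes, namely Gja5, Notch4 and Erg, at ranks 19, 22 and 96.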

How the data were processed

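Luteal RNA of 12 rats, 3 in each of 4 groups, was hybridised to Affymetrix Rat Gene 1.0 ST arrays. RMA was run by the authors in R 2.12.2, and the deposited values are log2 values of 29214 probe sets. RMA can compress large differences. The sources used here do not give which arrays were normalized jointly. There were 0 missing values and 0 pairs of identical arrays. The platform's annotation gave 1 symbol to 15310 probe sets, several to 323 and none to 13581, and only the first were used. Where a gene had several probe sets (527 genes), the one with the highest mean was read, which left 14506 genes.

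The model was limma's (version 3.58.1, R 4.3.3, with lmFit and eBayes, a mean for each group over 12 arrays, 8 residual and 6.66 prior degrees of freedom), with Benjamini-Hochberg adjustment across all genes. The fit was also run on simulated data in which genes varied independently, and no result here rests on that run. Precision is limited by the number of arrays: an exact two-sided permutation test of 3 arrays against 3 cannot go below p = 0.1. The labels name the replicates as biological. The study's methods give RNA samples of individual animals, so p values measure the spread between animals. Alternatives were the methods' t-test, filters on dim genes, other normalizations, probe sets and priors, a fit on the compared groups alone, a replicate block and leaving out each array.

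Members and lists were chosen with earlier results of these data known. Of the other endothelial genes, the called genes with the largest log2 fold changes were named, up to 4 in each direction of a comparison, and a gene so named may be given in other comparisons too. Elk3, Ets1, Epas1, Erg, Sox17, Sox18, Gata2, Hey2 and Fli1 were named after their values were seen. Of lists of other cells, up to 2 called genes of a comparison were named, and by likeness the 10 nearest genes. Promoter sequences are from RefSeq. The plots were drawn with matplotlib 3.10.9.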

Additional observations from a re-analysis of the deposited data

How the results depend on the processing

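Leaving out 1 array in turn left 4 to 6 endothelial identity genes lower in AI against VEH (5 with all arrays), 3 to 4 lower in AI+E2 against VEH (4) and 3 to 5 higher in VEH against day 12 (5), and no called value changed sign in any alternative. The methods' t-test with Benjamini-Hochberg adjustment gave 1 identity gene lower in AI against VEH, which was Nos3, 3 lower in AI+E2 against VEH and 0 higher in VEH against day 12, while at an unadjusted p under 0.05 it gave 5, 6 and 5. For the other endothelial genes it gave 10 lower and 1 higher in AI against VEH, 11 lower and 1 higher in AI+E2 against VEH, 1 lower and 0 higher in AI+E2 against AI, and 1 higher in VEH against day 12. A test of each gene alone has no shared estimate of the spread. A fit on AI+E2 and VEH arrays alone also called Pecam1 and Cdh5, at -0.23 and -0.19, and the t-test called Cdh5. The rise of Pecam1 in VEH against day 12 was lost when all probe sets were tested, at 0.32, and on repeated quantile normalization, at 0.26; the cause was not tested. The fall of 2 other endothelial genes in AI+E2 against AI became 1 with all probe sets, with arrays centred on their median and with the replicate block, and 4 with repeated quantile normalization. The 2 rises in AI+E2 against VEH became 1 with all probe sets and with a trended robust prior. Without the 50% dimmest genes the median of the other endothelial genes was -0.38 in AI against VEH and 0.31 in VEH against day 12, over fewer genes. Leaving out arrays gave medians of -0.33 to -0.25 in AI against VEH, -0.21 to -0.15 in AI+E2 against VEH and 0.20 to 0.28 in VEH against day 12, and in AI+E2 against AI counts of 1 to 2 lower and 3 to 9 higher, with 1 to 2 higher in AI+E2 against VEH. Same-numbered arrays of different groups did not regularly deviate together (correlations of -0.486 to 0.339, with 4 of 18 over 0.1), and unlike-numbered arrays reached 0.455. The deviations of the 3 arrays of a group sum to 0, so this check is weak and cannot exclude a shared order of handling. The replicate block changed no call count of the identity genes. Of single named genes, 177 values lost their call, 5 gained one and 1783 kept their side of the threshold. Signal limits Plvap most, since it lies among the 50% dimmest genes.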

Other observations

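Other vascular and blood markers did not all follow the endothelial identity genes. Of all genes, 6.90% fell and 6.11% rose in AI+E2 against VEH, and 11.0% fell and 5.91% rose in AI against VEH. In VEH against day 12, 3.23% fell and 6.91% rose. Of 6 genes of lymphatic endothelium, 1 fell in AI+E2 against VEH and 0 changed in AI against VEH or in VEH against day 12 by limma's test over all genes. At an unadjusted p under 0.05, limma gave 1 higher in AI against VEH and 2 higher in VEH against day 12. The methods' t-test, unadjusted, gave 1 lower in AI against VEH and 1 higher in VEH against day 12. The gene that fell in AI+E2 against VEH was Flt4, a receptor of lymphatic growth factors. It averaged 7.46 in AI+E2 CL, against 7.74 in VEH CL. The call was lost without AI+E2 replicate 2 or 3, at -0.27 and -0.28, and without VEH replicate 1, at -0.24. Of 7 platelet genes, 1 fell in AI+E2 and in AI against VEH, which was Itgb3, an integrin subunit that endothelial cells also carry (-0.47 with adjusted p = 0.000588 in AI+E2, -0.68 with adjusted p = 1.03e-05 in AI, on the log2 scale). Of 5 red blood cell genes, 3 fell in AI+E2 against VEH and 1 in AI against VEH, with Hbb, a beta globin gene, at 9.39 in AI+E2 CL, against 10.72 in VEH CL.

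In AI+E2 against VEH 6.11% of all genes rose and 6.90% fell, and in AI against VEH 5.91% rose and 11.0% fell. Of 10 lymphocyte genes, 1 rose in AI+E2 against VEH, and 0 changed in AI against VEH (unadjusted, 1 lower by limma and 0 by the methods' t-test). Of 11 genes of fibroblasts and matrix, AI+E2 CL had 4 higher and 3 lower than VEH, and AI CL had 2 higher. Of 9 genes of granulosa cells and oocytes of follicles, AI+E2 CL had 2 higher and 2 lower than VEH, and AI CL had 1 higher and 1 lower. Of 8 genes of periovarian fat, 0 changed in either comparison by limma, where at an unadjusted p under 0.05 both limma and the methods' t-test gave 1 lower in AI+E2 against VEH and 0 in AI against VEH.

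Set against untreated day 12 CL, 3 of the 63 other endothelial genes rose and 4 fell in AI+E2, and 2 rose and 2 fell in AI. The shares of all genes were 7.52% higher and 4.58% lower in AI+E2, and 3.30% higher and 4.27% lower in AI, so by the adjusted test the list was near the background. At an unadjusted p under 0.05 limma gave 6 higher and 8 lower in AI+E2, and 4 higher and 12 lower in AI. The methods' t-test, unadjusted, gave 7 higher and 7 lower in AI+E2, and 3 higher and 6 lower in AI. The unadjusted shares of all genes are not given here.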
